A study of Mus musculus with 2 samples.

Results

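The lysosomal cathepsins are the proteases that take apart proteins delivered to the lysosome, and 10 of them, Ctsa, Ctsb, Ctsc, Ctsd, Ctse, Ctsh, Ctsk, Ctsl, Ctss and Ctsz, were followed by name through the immune cells of the mouse heart, out of 23946 genes in the count table. They were picked as a gene family, not by a measured value, and all 10 are reported. Single cells positive for CD45, the surface marker of blood-derived cells, were sorted alive from the hearts of female wild-type C57BL6 mice, which per the methods were on a C57BL/6J background and 8 to 16 weeks old. The TTS library, a model of Takotsubo syndrome, came from mice given a single intraperitoneal dose of 200 mg/kg isoproterenol (ISO), a beta-adrenergic agonist, 24 h before collection. The Control library is vehicle-treated by its title and by the methods, although its treatment label repeats the isoproterenol dose and time. Each library pooled 3 hearts, so the animals cannot be told apart, and there is 1 library for each group. No difference below therefore has a replicate check, and no test was run. Every interval is a 95% interval that covers counting error only.

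Cathepsins are made as inactive precursors, are sorted to the lysosome by sugar tags or by sortilin-type receptors, and become active in its acid interior. Ctsb, Ctsc, Ctsh, Ctsk, Ctsl, Ctss and Ctsz are cysteine proteases, Ctsd and Ctse are aspartic proteases, and Ctsa is a serine carboxypeptidase. In macrophages and dendritic cells they break down engulfed material and prepare antigen for MHC class II, and cystatins hold the cysteine members in check.

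All positions are on GRCm38, the mm10 build, with spans from the GENCODE vM21 annotation. Ctsk (chr3:95499256-95509362) and Ctss (chr3:95526786-95556403) are neighbours on the plus strand. Ctsa (chr2:164832873-164841032, plus) and Ctsz (chr2:174427493-174439039, minus) share a chromosome, as do Ctsc (chr7:88278085-88310888, plus) and Ctsd (chr7:142375911-142388038, minus). The others are Ctsb (chr14:63122462-63145923, plus), Ctse (chr1:131638306-131675505, plus), Ctsh (chr9:90054152-90076089, plus) and Ctsl (chr13:64359337-64370890, minus). Ctsa overlaps Pltp, on the other strand, by 1515 bases, and the strand setting of the counting was not given in the sources used here, so reads from that overlap cannot be told apart. On the same strand, Ctsd overlaps the protein-coding Gm49369 by 6757 bases. Ctss overlaps the pseudogene Hmgb1-ps5 by 557 bases and Ctsl the pseudogene Gm49230 by 395. No strand setting separates reads from such overlaps, and their part in the counts was not tested.

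Bases before RefSeq start sites are shown because CACGTG, the core of the sites bound by TFEB-family factors that drive lysosomal genes, is the best known letter string of lysosomal promoters. RefSeq windows of 250 bases before the start were matched for 7 of the 10 members, Ctsa, Ctsc, Ctsd, Ctsk, Ctsl, Ctss and Ctsz, and Ctsb, Ctse and Ctsh had no entry. The string, which reads the same on both strands, was present before 3 of the 7, against 6.86% of 27025 genes, and a match is a description of letters and not a shown binding site. RefSeq starts need not be the start of the annotated gene. The Ctsa match lies in a later window that falls within the gene for 250 of its 250 bases, while its first window held none. The Ctsl window falls within the gene for 250 bases and the Ctsd window for 211, so that of the stretches below only the distal one of Ctsd lies before the annotated gene. Stretches of at most 30 bases around each match, on GRCm38.p6 and with the match in capitals, follow for Ctsa (chr2:164833749-164833772, plus strand, match starting 12 bases before the start), Ctsd (chr7:142388055-142388077 and chr7:142387908-142387937, minus strand, 245 and 98 bases before) and Ctsl (chr13:64370739-64370768, minus strand, 236 bases before).
Ctsa: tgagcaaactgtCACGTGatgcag
Ctsd, distal: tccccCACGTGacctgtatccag
Ctsd, proximal: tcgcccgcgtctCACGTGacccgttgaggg
Ctsl: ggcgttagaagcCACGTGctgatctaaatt
The window of Ctsz (chr2:174439040-174439289, minus strand), shown whole because Ctsz also stood high in the TTS library below, did not hold these 6 letters.
Ctsz: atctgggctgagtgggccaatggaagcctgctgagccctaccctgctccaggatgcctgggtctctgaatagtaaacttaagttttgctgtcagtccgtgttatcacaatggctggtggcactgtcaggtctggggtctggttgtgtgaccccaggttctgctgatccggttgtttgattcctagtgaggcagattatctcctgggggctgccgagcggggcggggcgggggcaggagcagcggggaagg

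The count table held 5927 barcodes in the Control and 5514 in the TTS library, with 47382455 and 58495112 UMIs, the counts of captured RNA molecules. After filtering 5641 and 5437 cells were kept, with a median of 4790 and 8537 UMIs per cell, and 15 barcodes occurred in both libraries. Cells were placed in 14 gates by summed marker UMIs per 10000 UMIs, since no cell annotation was used. The gates do not cover the libraries, since 2115 Control and 2924 TTS cells fell in none. A further 277 Control and 587 TTS macrophages fell in no subset gate. The macrophage gate, cut on 10 genes such as C1qa and Mrc1, held 1012 Control and 1661 TTS cells, of which 14 and 160 lay within 25% above its cut. Its subsets, by cells in Control and TTS, were resident (Timd4, Lyve1, Folr2 and Cd163, 463 and 140), MHC class II-high (185 and 22), Ccr2 (86 and 623) and Arg1-high (1 and 289). The other gates were classical (47 and 350) and nonclassical monocytes (56 and 22), cDC1 (38 and 51), cDC2 (58 and 232), mature DC (3 and 49), plasmacytoid DC (10 and 21), B cells (1737 and 22), T cells (190 and 37), NK cells (308 and 22) and ILC2 (67 and 46). Levels are CPM, a gene's UMIs scaled to the summed UMIs of a gate. Each molecule is counted once at its 3′ end, so levels of different genes were not divided by length.

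In the Control library the family split into members of macrophages and monocytes, members shared with dendritic and B cells, and 1 member that stood highest in NK cells. Ctsb, an endopeptidase that also trims dipeptides, was at 1969 CPM in resident macrophages, 1166 in MHC class II-high macrophages and 871 in Ccr2 macrophages. It was at 266 CPM in cDC2 and 60.7 in B cells. Ctsc, the dipeptidyl peptidase that activates granule serine proteases, had a like order, from 1551 CPM in resident macrophages to 148 in cDC1 and 55.9 in ILC2. Its 221 CPM in NK cells was above that of the other 3 lymphoid gates.

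Ctss, which cuts the invariant chain of MHC class II in antigen-presenting cells, and Ctsz, a carboxypeptidase, were spread more evenly over the myeloid gates. Ctss was at 1364 CPM in MHC class II-high and 1043 in resident macrophages, at 778 in cDC2 and 375 in B cells. Ctsz ran from 408 CPM in cDC1 to 717 in MHC class II-high macrophages among the Control myeloid gates with at least 20 cells. Ctsh, an aminopeptidase, was highest of those gates in cDC2, at 641 CPM against 544 in Ccr2 and 509 in resident macrophages, and it was at 4.98 CPM, or 6 UMIs, in NK cells. Ctsa, the carboxypeptidase that shields beta-galactosidase and neuraminidase, was at 260.3 CPM in resident macrophages and below that elsewhere.

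Ctsd and Ctsl were minor members in Control macrophages. Ctsd, the main aspartic protease of lysosomes, was at 390.1 CPM in resident and 175 CPM in Ccr2 macrophages. NK cells held 1007 CPM of Ctsd, 19.0-fold the 52.9 CPM of B cells and 4.74-fold the 212 CPM of T cells in the same library. Cells thinned to 1000 UMIs showed a Ctsd UMI in 65.6% of Control NK cells against 5.31% of Control B cells, whose median depths before thinning were 3602 and 3265 UMIs. Ctsl, an endopeptidase of broad reach, was at 214 CPM in resident macrophages, 142 in Ccr2 macrophages, 111 in classical monocytes and 16.3 in cDC2.

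Ctse and Ctsk were near the floor of detection. Ctse, an endosomal aspartic protease, reached at most 11.4 CPM in the Control gates with at least 20 cells, in cDC2, and its 58 UMIs in B cells came to 8.92 CPM. Ctsk, the collagen-cutting protease known from osteoclasts, was at 0.613 CPM over all Control macrophages, which is 5 UMIs.

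**Figure D1:**
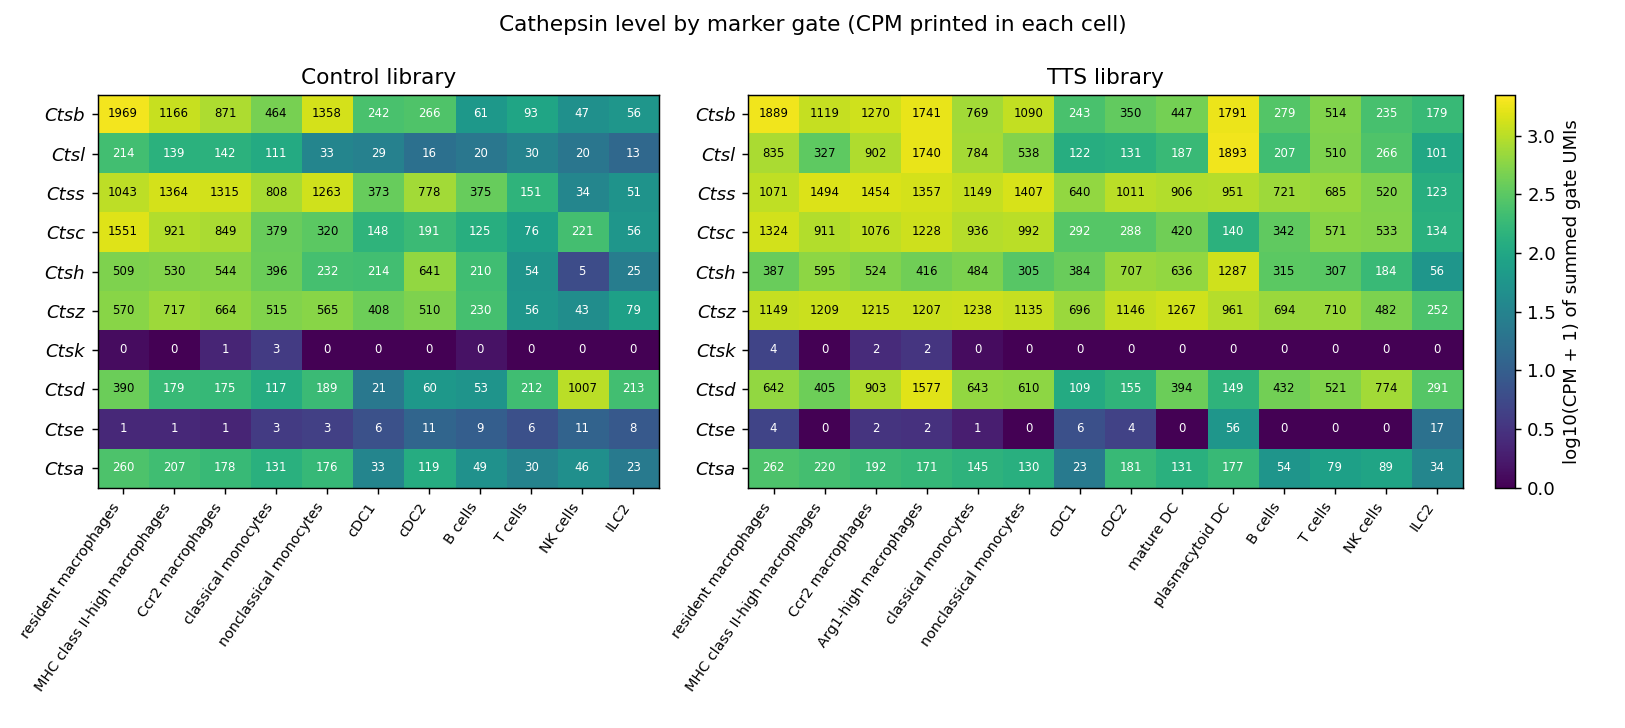
Level of each cathepsin (rows) in each marker gate with at least 20 cells (columns), with a panel for each library. Levels are CPM of the summed UMIs, on a log colour scale. Ctsb and Ctsc are brightest in macrophages, Ctsd stands out in Control NK cells, and Ctsl and Ctsd are brighter in the TTS macrophage and monocyte gates than in the Control ones.

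Between the libraries, all macrophages together held more Ctsl, Ctsd and Ctsz in TTS, while Ctsb, Ctsc, Ctsa, Ctsh and Ctss lay within 1.5-fold of the Control level. Ctsl was at 174 CPM in Control macrophages and 1157 CPM in those of TTS, 6.66-fold higher (log2 ratio of TTS over Control 2.73, interval 2.66 to 2.81). Ctsd was at 311 and 1130.2 CPM, 3.64-fold higher (1.86, 1.80 to 1.92). Ctsz was at 627 and 1217 CPM, 1.94-fold higher (0.96, 0.91 to 1.0). Among 12555 genes with at least 20 UMIs in this gate over both libraries, Ctsl ranked 155th from the highest ratio, Ctsd 345th and Ctsz 1093rd.

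The 2 most abundant Control members were close to level. Ctsb was at 1559 CPM in Control and 1567 CPM in TTS (0.01, -0.02 to 0.04), and Ctsc was at 1232.5 and 1116 CPM (-0.14, -0.18 to -0.11). Ctss was at 1162 and 1342 CPM (0.21, 0.17 to 0.24), Ctsh at 514 and 465 CPM (-0.14, -0.20 to -0.09) and Ctsa at 231 and 197 CPM (-0.23, -0.31 to -0.15). The sign of the small negative ratios depends on the scale, since centred on the all-gene median Ctsc came to 0.12, Ctsh to 0.12 and Ctsa to 0.04. The family thus went from a pool led by Ctsb, Ctsc and Ctss to one in which 6 members lay between 1116 and 1567 CPM.

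The rare members added little. Ctsk had 5 UMIs in 5 Control macrophages and 65 UMIs in 35 TTS macrophages (0.613 and 3.80 CPM, log2 ratio 2.63, 1.34 to 4.30). A pair of TTS cells held 10 and 9 of these UMIs, and 46 were left without them. Ctse was at 1.96 and 1.75 CPM. In all, 3 of 10 members (Ctsd, Ctsk and Ctsl) were at least 2-fold higher in TTS, where 8.12% of all 12555 genes were, and 0 of 10 were at least 2-fold lower, where 20.6% of genes were. The median log2 ratio was 0.11 over the 10 members and -0.27 over all genes.

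The macrophage gate differed in make-up between the libraries, with resident cells its largest subset in Control and Ccr2 cells in TTS, so that a shift in make-up and a difference within a subset cannot be told apart in the pooled ratio. Its cells also differed in other scores. The median of the monocyte marker score per 10000 UMIs was 7.12 in Control and 31.4 in TTS macrophages, that of the MHC class II genes 155 and 2.01, that of the macrophage markers 270.1 and 109.7, and that of the neutrophil markers 0 and 0.815, while the B, T, NK and ILC2 medians were 0 in both. The part of these differences in the cathepsin values was not tested. Gm26924, a transcript annotated over ribosomal RNA sequence, held 5.58% of Control and 1.11% of TTS macrophage UMIs, and with it left out of the totals the log2 ratio of Ctsl was 2.67, that of Ctsd 1.80 and that of Ctsz 0.89.

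**Figure D2:**
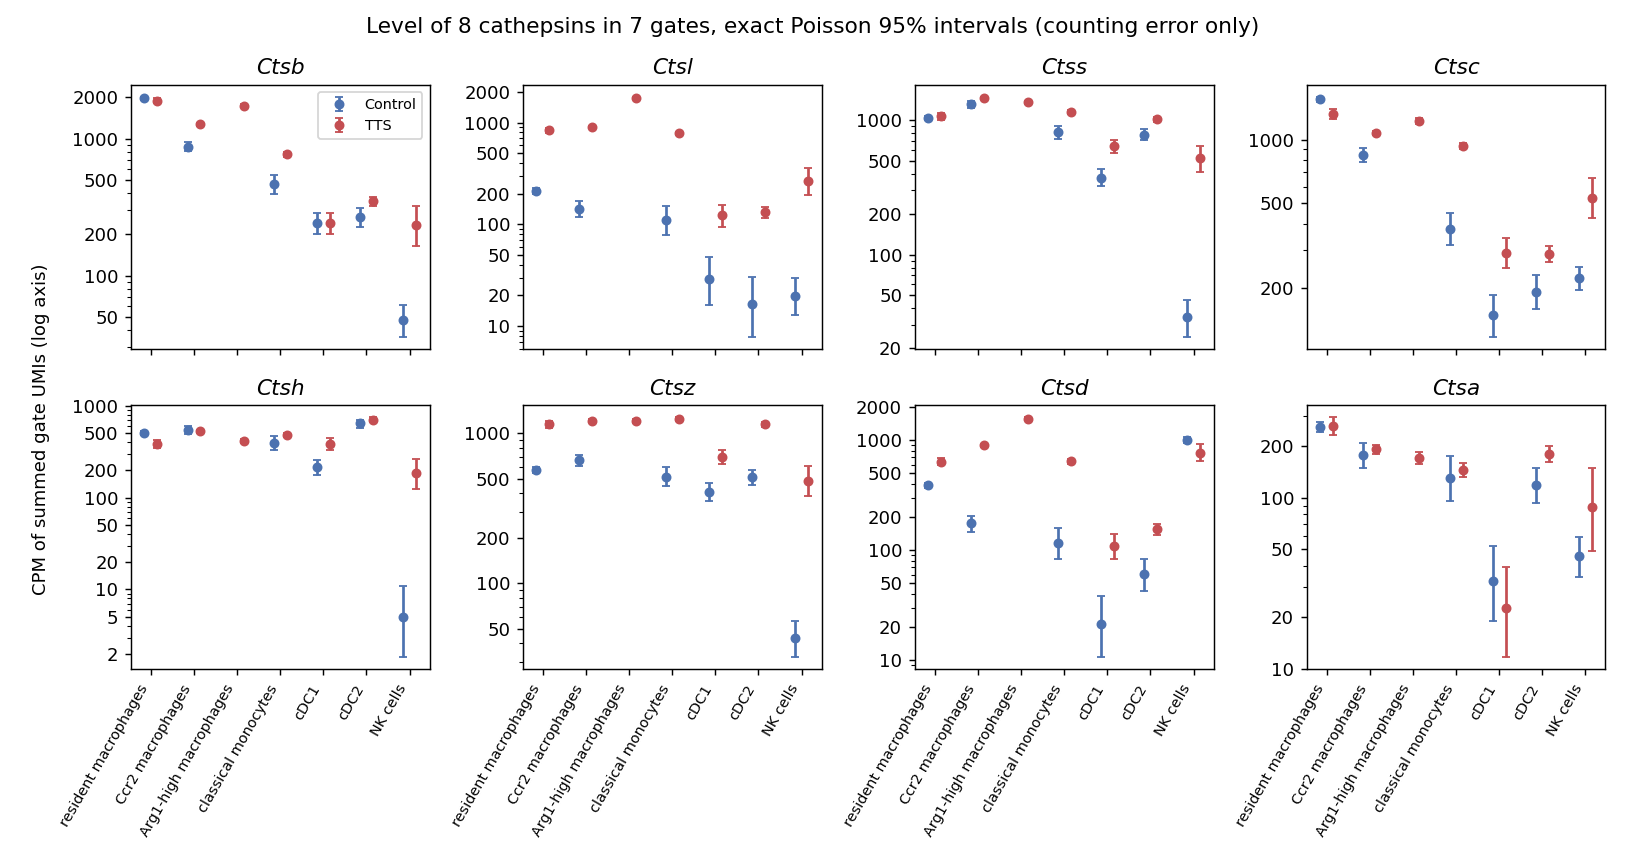
CPM of the cathepsins by gate, Control beside TTS, with exact Poisson 95% intervals for counting error. Ctsl and Ctsd lie higher in TTS in the macrophage and monocyte gates, and Ctsb lies close to level in resident macrophages (1969 and 1889 CPM).

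Resident macrophages, a largely self-renewing class of the healthy heart, held more Ctsl, Ctsz and Ctsd in TTS and less Ctsc and Ctsh. Ctsl was at 214 CPM in Control and 835 CPM in TTS, 3.90-fold higher (1.96, 1.82 to 2.11). Ctsz was at 569.8 and 1149 CPM, 2.02-fold higher (1.01, 0.91 to 1.12). Ctsd was at 390.1 and 642 CPM, 1.64-fold higher (0.72, 0.58 to 0.85). These 3 stood above the other members, of which Ctss, Ctsa and Ctsb had log2 ratios of 0.04, 0.01 and -0.06. Ctsc was at 1551 and 1324 CPM (-0.23, -0.32 to -0.14) and Ctsh at 509 and 387 CPM (-0.39, -0.55 to -0.24). In this gate 2 of 8 members with at least 20 UMIs, Ctsl and Ctsz, were at least 2-fold higher, where 7.73% of 9847 genes were, and 0 were at least 2-fold lower, where 9.71% were. The median ratio of the 8 members was 0.02 and that of all genes 0.01. Ctsz sat on the 2-fold line and came to lie just under it in 3 of the other settings tried. The gate's MHC class II score had a median of 76.5 per 10000 UMIs in Control and 2.45 in TTS. Its monocyte marker score had one of 13.6 and 24.8, and the part of both was not tested.

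Ccr2 macrophages, the class that monocytes replenish, held Ctsl and Ctsd at levels well above those of the Control. Ctsl was at 142 CPM in the 86 Control cells and 902 CPM in the 623 TTS cells, 6.34-fold higher (2.66, 2.40 to 2.94). Ctsd was at 175 and 903 CPM, 5.15-fold higher (2.36, 2.12 to 2.61). Ctsz was at 664 and 1215 CPM (0.87, 0.75 to 1.0), Ctsb at 871 and 1270.0 CPM (0.54, 0.43 to 0.66) and Ctsc at 849 and 1076 CPM (0.34). Ctss, Ctsa and Ctsh lay within 1.2-fold, at 0.14, 0.11 and -0.05. Thus 2 of 8 members, Ctsl and Ctsd, were at least 2-fold higher, where 9.82% of 9644 genes were, and 0 were at least 2-fold lower, where 15.7% were. The 8 members had a median of 0.44 and all genes one of -0.12. The Control and TTS cells of this gate differed in other scores. The median per 10000 UMIs was 2.20 and 40.7 for the monocyte markers, 272.8 and 1.78 for the MHC class II genes and 147 and 104 for the macrophage markers, and their part was not tested.

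Arg1-high macrophages were found in the TTS library, with 289 cells against 1, so they have no Control value. Arg1, the arginase of wound-type macrophages, was the gate's cut and is no finding. These cells held the highest Ctsl and Ctsd of the macrophage subsets, at 1739.95 and 1577 CPM. Over the Ccr2 macrophages of the same library Ctsl was higher by a log2 ratio of 0.95 (0.89 to 1.0), Ctsd by 0.80 (0.75 to 0.86) and Ctsb, at 1741 CPM, by 0.45 (0.40 to 0.50). Ctsh was lower, at 416 against 524 CPM, and Ctsz was at 1207 against 1215 CPM. With cells thinned to 1000 UMIs, 72.7% of Arg1-high macrophages had a Ctsl UMI and 69.6% a Ctsd UMI. The order of Ctsl over the TTS macrophage subsets was Arg1-high, Ccr2 (902), resident (835) and MHC class II-high (327 CPM, 22 cells). The Ctsd order was the same, at 1577, 903, 642 and 405 CPM.

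The MHC class II-high macrophages, cut on H2-Aa, H2-Ab1 and H2-Eb1, counted 22 cells in TTS. Ctsl was at 139 and 327 CPM (1.24, 0.78 to 1.68), Ctsd at 179 and 405 CPM (1.17, 0.76 to 1.57) and Ctsz at 717 and 1209 CPM (0.75, 0.53 to 0.97). Ctsb, Ctss and Ctsh had intervals that included 0.

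**Figure D3:**
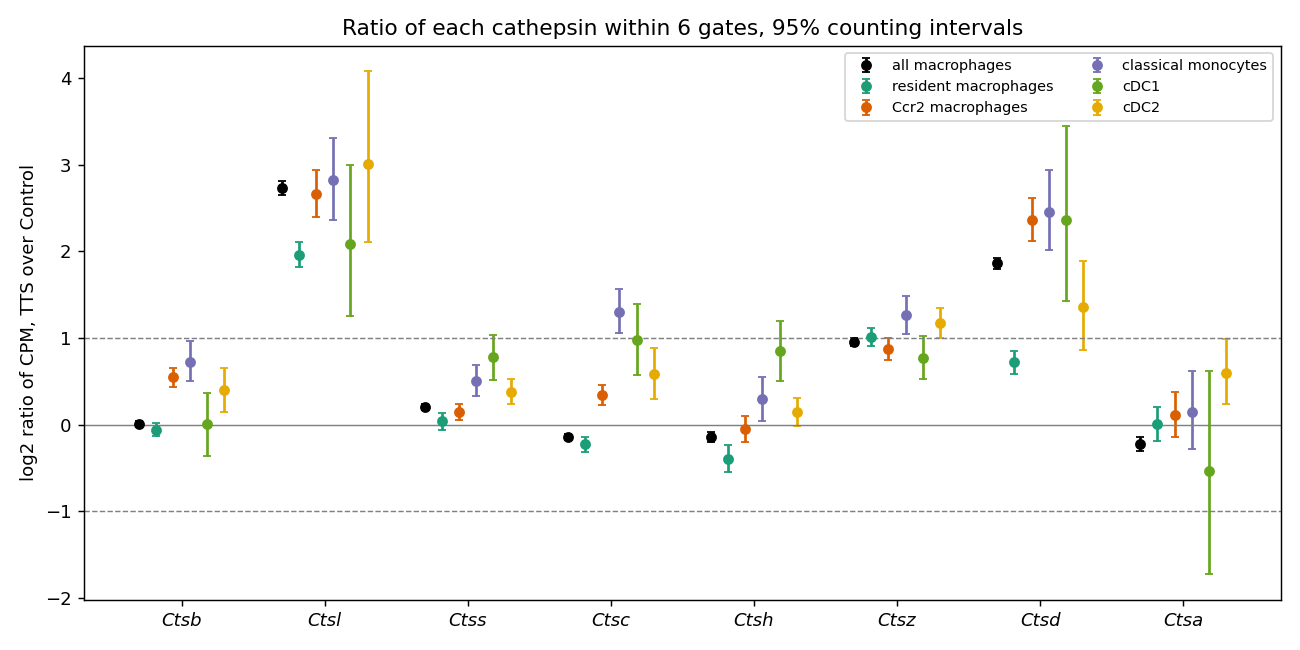
log2 ratio of TTS over Control for the cathepsins other than Ctsk and Ctse, with 95% counting intervals. The gates drawn are all, resident and Ccr2 macrophages, classical monocytes, cDC1 and cDC2. The Ctsl, Ctsd and Ctsz points lie above 0 in each of them. Over the 11 gates compared besides all macrophages, drawn or not, Ctsl and Ctsz were above 0, while Ctsd was below 0 in NK cells.

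Monocytes enter the heart from blood, and the classical ones, marked by Ly6c2, are the source of Ccr2 macrophages. This gate held 47 Control and 350 TTS cells, and its Control cells were mixed. The Control gate held 308 UMIs of Gzmb, 49 of Gzma and 49 of the basophil protease Mcpt8, against 1, 5 and 0 in TTS, and Ctss was seen in 72.3% of Control and 98.9% of TTS cells. Over the whole gate Ctsl was at 111 and 784 CPM, 7.06-fold higher (2.82, 2.37 to 3.32). Ctsd was at 117 and 643 CPM, 5.51-fold higher (2.46, 2.02 to 2.94). Ctsc was at 379 and 936 CPM, 2.47-fold higher (1.31, 1.06 to 1.57), and Ctsz at 515 and 1238 CPM, 2.40-fold higher (1.27, 1.05 to 1.49). Ctsb, with 464 and 769 CPM, had a ratio of 0.73, and Ctss, with 808 and 1149 CPM, one of 0.51. Together 4 of 8 members, Ctsc, Ctsd, Ctsl and Ctsz, were at least 2-fold higher, where 12.4% of 8506 genes were, and 0 were at least 2-fold lower, where 18.6% were. Their median was 0.99 against -0.19 over all genes, and the 4 became 2 with the marker minimum doubled.

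All of those Control UMIs of Gzmb, Gzma and Mcpt8 lay in 25 Control cells with Lyz2 under 20 per 10000 UMIs. In the 22 Control and 282 TTS cells at or above that level, a limit set after seeing the data, Ctsl was at 125 and 904 CPM (2.85, 2.30 to 3.47) and Ctsd at 111 and 738 CPM (2.73, 2.14 to 3.40). Ctsc was at 521 and 1055 CPM (1.02, 0.74 to 1.31) and Ctsz at 651 and 1264 CPM (0.96, 0.71 to 1.22). Ctsl and Ctsd thus stood as far apart as in the whole gate, and Ctsz came to lie under 2-fold. Ctss, at 1129 and 1185 CPM, had a ratio of 0.07 (-0.12 to 0.27), and Ctsb, at 651 and 843 CPM, one of 0.37.

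Nonclassical monocytes, which patrol vessels, were 56 and 22 cells, and 45.5% of the TTS cells lay within 25% above the cut. Ctsl was at 32.6 and 538 CPM (4.04, 3.09 to 5.16), on 10 Control UMIs, and Ctsd at 189 and 610 CPM. Ctsb was lower in TTS, at 1358 and 1089.6 CPM (-0.32, -0.59 to -0.06). The classical monocyte score of this gate had a median of 13.3 per 10000 UMIs in Control and 47.7 in TTS, and its part in these ratios was not tested.

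Conventional dendritic cells held fewer Ctsl and Ctsd molecules than macrophages in both libraries, and Ctsz, Ctss and Ctsh led in both except in Control cDC1, where Ctsb (242 CPM) stood above Ctsh (214 CPM). In cDC2, which present antigen to helper T cells, Ctsz was at 509.9 CPM in Control and 1146 CPM in TTS, 2.25-fold higher (1.17, 1.0 to 1.34). Ctss was at 778 and 1011 CPM (0.38) and Ctsh at 641 and 707 CPM (0.14, -0.02 to 0.31). Ctsl was at 16.3 and 131 CPM, or 10 and 252 UMIs (3.01, 2.10 to 4.08), and Ctsd at 60.5 and 155 CPM (1.36, 0.86 to 1.89). Thus 3 of 8 members, Ctsd, Ctsl and Ctsz, were at least 2-fold higher, where 7.35% of 7918 genes were, and 0 were at least 2-fold lower, where 10.3% were. The median over members was 0.59 and over all genes -0.06.

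A myeloid transcript was also measured in this gate. Lyz2, a lysozyme of macrophages and monocytes, was at 3663 CPM in Control cDC2 and 2668 CPM in TTS cDC2, and Ctsl occurred in 34.1% of TTS cDC2 before thinning and 6.47% after. In the 29 Control and 133 TTS cells with Lyz2 under 5 per 10000 UMIs the log2 ratios were 1.45 for Ctsl, 0.98 for Ctsd and 0.92 for Ctsz. The direction was the same in these cells, and Ctsd and Ctsz came to lie under 2-fold.

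In cDC1, the cross-presenting class marked by Xcr1 and Clec9a, Ctsz was at 408 and 696 CPM (0.77, 0.52 to 1.02) and Ctss at 373 and 640 CPM (0.78, 0.52 to 1.04). Ctsh was at 214 and 384 CPM (0.85) and Ctsc at 148 and 292 CPM (0.98). Ctsd rested on 11 and 58 UMIs, at 21.2 and 109 CPM (2.37, 1.42 to 3.45), and Ctsl on 15 and 65 UMIs, at 28.9 and 122 CPM (2.08). Most of these cells had neither, since a Ctsd UMI occurred in 27.5% and a Ctsl UMI in 21.6% of TTS cDC1. In 51 TTS cells thinned to 1000 UMIs 1 cell kept a Ctsd UMI, as did 1 of 38 Control cells, and the Ctsd ratio then turned to -0.42. In the 38 TTS cDC1 with Lyz2 under 5 per 10000 UMIs Ctsd was at 23.5 CPM and Ctsl at 20.9 CPM, close to the whole Control gate, while Ctsz was at 644 CPM, and 10 Control cells were too few for a ratio. By count 2 of 8 members, Ctsd and Ctsl, were at least 2-fold higher, where 7.42% of 5576 genes were, and 0 were at least 2-fold lower, where 8.63% were. The medians were 0.81 over members and 0.02 over all genes.

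Few TTS cells passed the lymphocyte gates, at 22 B, 37 T and 22 NK cells. These gates carried Lyz2, a gene of macrophages and monocytes alike. Lyz2 stood at 187 CPM in Control and 2846 CPM in TTS B cells, at 261 and 5624 CPM in T cells and at 97.0 and 4775 CPM in NK cells. In TTS these levels were 20.2%, 40.01% and 34.0% of the 14056 CPM of macrophages, and classical monocytes held 11971 CPM. The macrophage gene C1qa was at 30.1 and 0 CPM in T cells and at 25.7 and 19.0 CPM in NK cells. In B cells C1qa was at 30.1 and 27.0 CPM, against 1478 CPM in TTS macrophages. The lymphocyte gates took only cells with a macrophage marker score, which includes C1qa, under 16 per 10000 UMIs. Low C1qa was thus in part set by the gate. Monocyte markers were not limited there, so barcodes of a lymphocyte and a monocyte could stay. The median monocyte marker score per 10000 UMIs was 5.57 in Control and 11.1 in TTS B cells. It was 2.41 and 6.65 in T cells and 6.96 and 6.99 in NK cells. The cathepsins of myeloid cells stood higher beside Lyz2. Ctsz was at 56.4 and 710 CPM and Ctsl at 30.1 and 510 CPM in T cells, and Ctss at 34.0 and 520.0 CPM in NK cells. The share of free or neighbouring myeloid RNA in these values was not tested, and they are not read as lymphocyte expression. ILC2, the innate cells of type 2 responses, carried Lyz2 at 762 and 493 CPM, and there Ctsl was at 12.7 and 101 CPM on 5 and 18 UMIs. In ILC2 with Lyz2 under 5 per 10000 UMIs the log2 ratio of Ctsl was 1.40, that of Ctsz 1.40 and that of Ctsb 1.69.

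Before any subtraction, Ctsd in NK cells went the other way from the other members with at least 20 UMIs in this gate. It was at 1007 CPM in 308 Control and 774 CPM in 22 TTS NK cells (-0.38, -0.66 to -0.11). Thinned cells with a Ctsd UMI made up 65.6% in Control and 68.2% in TTS. Subtracting myeloid RNA scaled on Lyz2, an alternative added after seeing the data, left 389.7 CPM in TTS NK cells against 1004 CPM in Control, a log2 ratio of -1.37. Ctsd was then not alone, since Ctsa came to -1.01 and Ctsc to -0.46, and Ctsb and Ctsl to 0 CPM in TTS. Ctsh, Ctss and Ctsz stayed higher, at 5.11, 1.39 and 0.85.

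Summed over the 10 members, cathepsin transcripts made up 0.581% of Control and 0.820% of TTS macrophage UMIs. The sum was at 5813 and 8196 CPM, 1.41-fold higher (0.50, 0.48 to 0.51). It was at 6508 and 7567 CPM in resident macrophages (1.16-fold), 4741 and 7541 CPM in Ccr2 macrophages and 2927 and 6149.8 CPM in classical monocytes (2.10-fold). In the classical monocytes with Lyz2 at or above 20 per 10000 UMIs it was at 3868 and 6602 CPM (1.71-fold). Arg1-high macrophages had the highest sum, 9441 CPM. Conventional dendritic cells had less, at 2594 and 3972 CPM in cDC2 and 1474 and 2515 CPM in cDC1.

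Of the 2383 CPM by which the macrophage sum was higher in TTS, Ctsl made up 983 CPM (41.2%), Ctsd 819 CPM (34.4%) and Ctsz 589.7 CPM (24.7%). These 3 came to 100.4% of the net difference, with the other 7 members close to cancelling. In Ccr2 macrophages the same 3 made up 72.8%, and in the whole classical monocyte gate, whose Control cells were mixed, 59.6%. The rest in both gates came mostly from Ctsb, Ctsc and Ctss. In the classical monocytes at or above the Lyz2 limit, however, Ctss was close to level, at 1129 and 1185 CPM. Ctsb was there at 651 and 843 CPM and Ctsc at 521 and 1055 CPM. Shares of the difference were not taken for these cells.

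**Figure D4:**
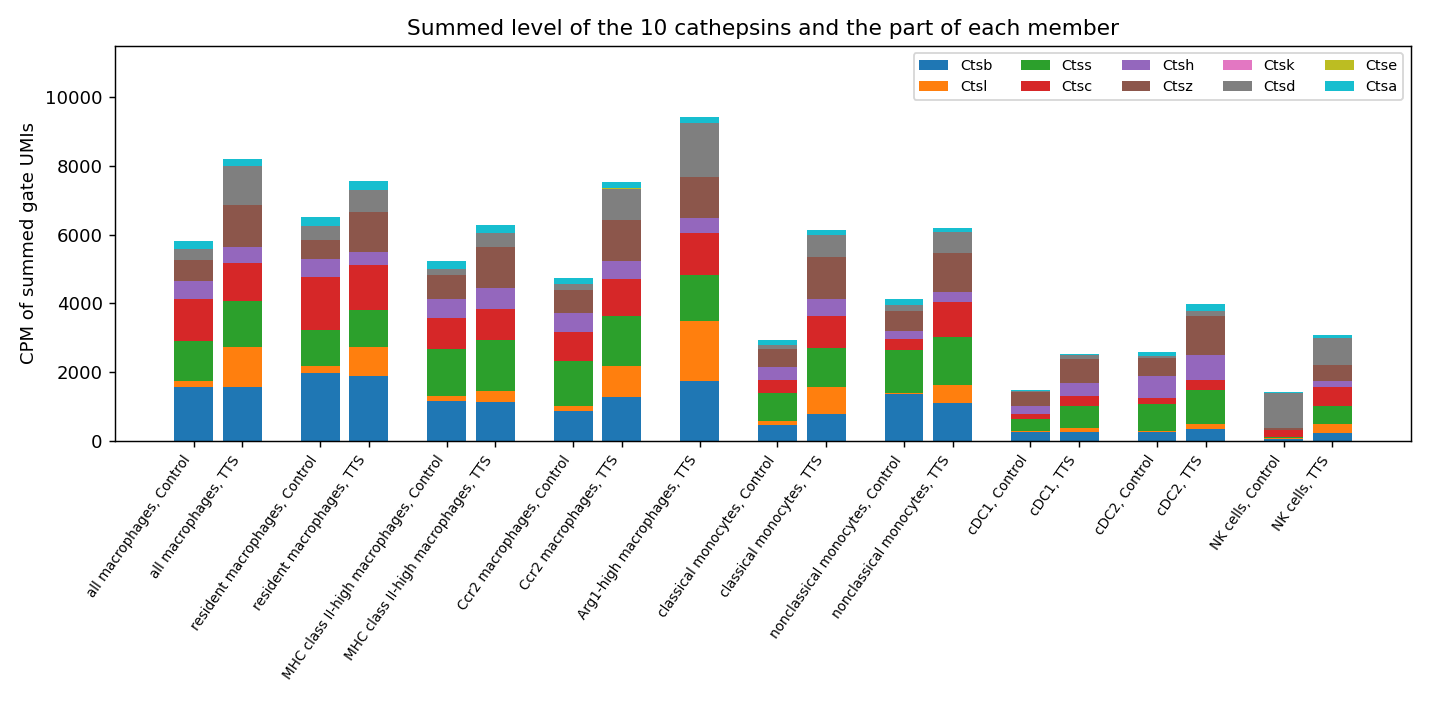
Stacked CPM of the cathepsins in macrophage, monocyte and dendritic cell gates, Control and TTS, each bar starting at 0. The bar for all macrophages stands at 5813 CPM in Control and 8196 CPM in TTS, and the added height is made of Ctsl, Ctsd and Ctsz.

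The difference was carried by many cells. In all macrophages thinned to 1000 UMIs, 24.3% of Control cells (21.7 to 27.1%) and 55.2% of TTS cells (52.8 to 57.6%) had a Ctsd UMI, and 17.5% and 55.1% a Ctsl UMI. Without thinning the shares were 72.4% and 94.6% for Ctsd and 60.3% and 93.1% for Ctsl, at median depths of 6622 UMIs per cell in Control and 8368 in TTS. Control B cells, set beside these for comparison, gave thinned shares of 5.31% for Ctsd and 1.96% for Ctsl. The 22 TTS B cells gave 13.6% (2.91 to 34.9%) and 4.55%. The median cell held 2.14 Ctsd UMIs per 10000 in Control and 7.84 in TTS, 1.24 and 7.52 for Ctsl, and 5.36 and 11.6 for Ctsz.

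Across the 1661 TTS macrophages, Ctsd went with Ctsb (Spearman rho 0.51) and Ctsl with Ctsd (0.41), while Ctsl went neither with Ctsz (0.03) nor with Ctss (-0.02). Ctsd also went with Spp1 (0.53), the osteopontin gene, and Ctsl with Arg1 (0.41). These correlations describe cells of 1 library that share depth and sparse counts. Over 25 profiles, the gates of both libraries with at least 20 cells and on the log2(CPM + 10) scale, Ctsh and Ctss (Pearson r 0.92) and Ctss and Ctsz (0.92) were alike, and Ctsd and Ctss were not (0.08). The profiles share 2 libraries, and the macrophage subsets are also part of the macrophage gate.

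Among 3838 other genes compared over the same 25 profiles, the closest to Ctsb were Lgmn (0.91), Cd68 (0.91) and Lamp2 (0.90), and the closest to Ctsc were Fcgr3 (0.94), Sdcbp and C5ar1. Ctsl was nearest Bsg (0.90), Bst1 (0.86) and Fth1, Ctsz nearest Fth1 (0.94), Cd68 and Pirb, and Ctss nearest Pirb (0.94) and Cd68. Ctsd had no near match, with Dok2 and Cers2 at 0.81 and B4galt1 at 0.77. Ctsa was nearest Sirpa (0.88), Gm15487 and Lamp2, and Ctsh nearest Ctss itself, Erp29 and Pirb. Ctse and Ctsk were left out because no profile reached 100 CPM.

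The cystatins, the inhibitors of the cysteine members, split. Of 12 cystatin genes 5 had at least 20 UMIs in all macrophages. Of these 4 were at least 2-fold higher in TTS and 1 lower, where 8.12% and 20.6% of all genes were. Their median ratio was 1.81 against -0.27 over all genes, and 3 of the higher ones were rare. Cstb, the cytosolic stefin B, was at 234 CPM in Control and 1216 CPM in TTS, 5.201-fold higher (2.38). Cst3, the secreted cystatin C, was at 4159.5 and 2027 CPM (-1.04). The other 3, Cst7, Stfa2l1 and Gm5483, stayed under 6 CPM in both libraries. The neutrophil marker medians of this gate were 0 and 0.815, and the part of neutrophil RNA in these 3 was not tested. The ratio of Cstb was 1.59 in resident, 2.07 in Ccr2 and 2.12 in classical monocyte gates. That of Cst3 was -0.87, -0.68 and 0.70, lower in resident and Ccr2 macrophages and higher in the monocyte gate. The monocyte values are of the whole gate, whose Control cells were mixed.

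The other lysosome genes did not stand higher as a whole. Of the 22 other hydrolases, 1 was at least 2-fold higher in TTS macrophages and 6 were lower, among them Galc, Arsb, Prcp and Pla2g15, where 8.12% and 20.6% of all genes were, with a median of -0.61. Within single gates the hydrolase median was -0.23 in resident macrophages, 0.09 in Ccr2 macrophages and 0.05 in classical monocytes. Arsb, an arylsulfatase, was at 8.46 and 1.64 CPM (-2.37) and Prcp, a carboxypeptidase, at 157 and 61.4 CPM (-1.35). The most abundant hydrolase genes were Npc2, the cholesterol carrier, at 649 and 728 CPM, and Hexa at 442 and 278 CPM. Gm2a, the activator of ganglioside breakdown, was the higher one, at 299.7 and 608 CPM (1.02). It was named after its value was seen, as was Galc. The 10 lysosomal membrane genes had 0 past 2-fold in either direction and a median of -0.13, with Lamp1 at 694.5 and 699.8 CPM, Lamp2 at 492 and 326 CPM and Laptm5 at 1292 and 795 CPM. The 16 subunits of the V-ATPase, the pump that acidifies the lysosome, had 0 past 2-fold and a median of 0.35, with Atp6v1h at 1.0, just under the line, Atp6v1c1 at 0.98 and Atp6v1e1 at 0.92. Its most abundant subunit, Atp6v0b, was at 544 and 549.5 CPM.

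Among the 8 sorting and maturation genes, Igf2r, the receptor that carries tagged enzymes to the lysosome, was the member past 2-fold, at 3.55 and 32.2 CPM (3.18). Lgmn, which clips cathepsin precursors, was at 714 and 830 CPM (0.22), Psap, the prosaposin gene, at 415 and 500.1 CPM and Grn, the progranulin gene, at 555 and 400.2 CPM. The median of the 8 was 0.24. Of the 4 regulators, Tfec was at 8.83 and 28.5 CPM (1.69), Mitf had a ratio of 0.33, Tfeb of -0.01 and Tfe3 of -0.83.

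Of the 4 further cathepsins, 3 were measured and Ctsf, also a cysteine protease, was the one past 2-fold, at 41.9 and 6.26 CPM, with Ctso at 29.4 and 15.1 CPM and Ctsw at 6.497 and 3.39 CPM. Cd74, the invariant chain of MHC class II that Ctss and Ctsl process, stood lower, at 18587 and 4103 CPM (-2.18). The MHC class II genes H2-Aa and H2-Ab1 were at -2.42 and -2.21, and the loading partners H2-DMa and H2-DMb1 at -0.89 and -0.76. In the whole classical monocyte gate, whose Control cells were mixed, Cd74 was higher, at 3752 and 5730 CPM (0.61). Of the 6 granule proteases that cathepsin C activates, 3 were measured, with Prtn3, a neutrophil protease, at 3 and 270 UMIs beside neutrophil marker medians of 0 and 0.815, Gzmb at -1.45 and Gzma at -0.56, while Elane, Gzmk and Mcpt8 had at most 1 UMI. In sum 76 of the 87 other lysosome genes had at least 20 UMIs, and of these 8 were at least 2-fold higher and 12 lower, where 8.12% and 20.6% of all genes were.

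**Figure D5:**
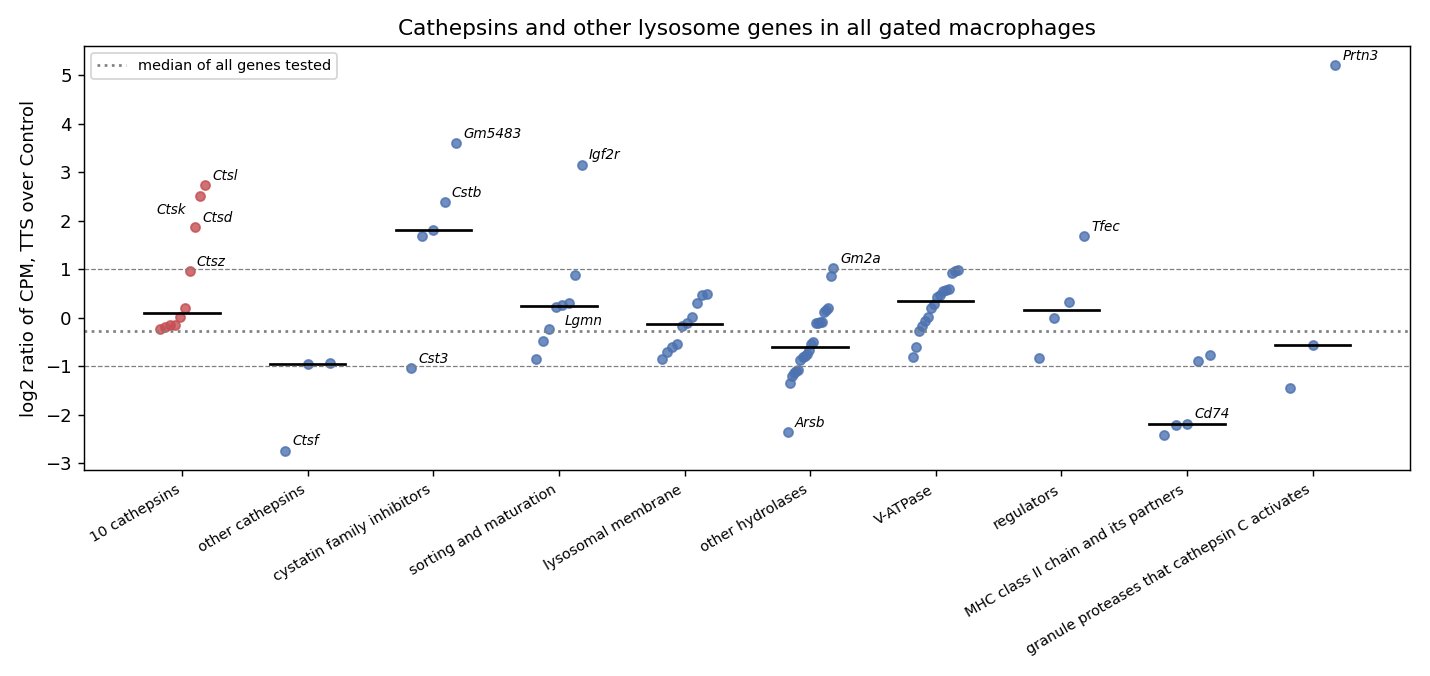
log2 ratio of TTS over Control in all macrophages for each gene of the lysosome lists, with 0.5 UMI added to each count, list medians as black bars and the all-gene median of -0.27 as a dotted line. Ctsl and Ctsd lie above most lysosome genes, while the other hydrolases lie mostly below 0.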

How the data were processed

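The authors deposited raw UMI counts per gene and cell for both libraries (10x Chromium 3′ V3, 15000 cells loaded); the submitters' processing notes name bcl2fastq 2.19.1.403, UMI-tools 1.0.0, STAR 2.7.3a, featureCounts 1.6.4 and mm10. Cells with over 500 and under 6000 genes and under 25% mitochondrial UMIs were kept. Gates took cells past a marker minimum for 1 lineage. Left out were barcodes past the minimum of 2 among the B, T, NK, ILC2, neutrophil, cDC1, mature DC, plasmacytoid DC and nonimmune markers. Macrophage, monocyte and cDC2 gates took no cell past any of these. Macrophage markers were capped in the lymphocyte and dendritic gates, but monocyte markers were not, so barcodes with monocyte RNA could stay there. UMIs were summed per gate and library (Python 3.11.15, numpy 2.4.6, scipy 1.17.1, pandas 2.3.3). Levels carry exact Poisson intervals, ratios conditional exact binomial intervals and shares Clopper-Pearson intervals. Ratios needed 20 cells in both gates and 20 UMIs, with 0.5 UMI added to each count for ranks and medians over all genes. With 1 library per group there is no test, and 2-fold describes size. Scrublet in scanpy 1.11.5 called 13 Control and 0 TTS doublets at its own threshold, so doublets were left in; removing the 256 and 252 highest scores was an alternative. The 10 members, the lysosome lists, the promoter motif and the marker minimums were chosen with earlier results of these data known. All 10 members are named, lists of up to 6 genes in full, and longer lists by their 3 most abundant and 3 farthest genes. Other settings numbered 13, and 4 more were added after seeing the data. The summing and interval functions were tested on simulated data. Some genes that these rules pick are not reported here.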

Additional observations from a re-analysis of the deposited data

Results flagged for a closer look

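Results drew attention where a member was lower in TTS in 1 gate and higher in others, each by its counting interval, and the difference between gates was not tested. Ctsb was lower in nonclassical monocytes (log2 ratio -0.32) and higher in 7 other gates, and its ratio was 0 with cells thinned to 1000 UMIs. Ctsc was lower in resident macrophages (-0.23) and higher in 9 others, with a ratio of -0.03 when barcodes of 2 lineages were kept, and Ctsh was lower there too (-0.39) and higher in 5 others. Ctsd was lower in NK cells (-0.38) and higher in 9 other gates. These counts are over 11 gates that hold at least 20 cells in each library, the lymphocyte gates with their Lyz2 included.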

How the results depend on the processing

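Of 97 ratios of a member in a gate, 47 were past 2-fold. The B, T, NK and ILC2 gates, with their Lyz2, gave 5, 8, 6 and 6 of these. There 17.6%, 14.5%, 9.47% and 9.99% of all genes were at least 2-fold higher, against 7.35% to 12.4% in the other gates. All macrophages were counted beside their own subsets. Over the alternatives the 47 ratios gave 518 values, of which 515 kept their sign and 480 stayed past 2-fold. The 3 that reversed were Ctsd in cDC1 with cells thinned to 1000 UMIs (-0.42, on 1 cell with a UMI in each library), and, after myeloid RNA scaled on Lyz2 was subtracted, Ctsd in T cells (-1.58) and Ctsc in NK cells (-0.46). In all macrophages the 10 settings not added after seeing the data ranged from 2.53 to 3.00 for Ctsl, 1.74 to 2.13 for Ctsd and 0.94 to 1.22 for Ctsz. The log2 ratio of the summed members, 0.50, was 0.69 with barcodes of 2 lineages kept, 0.44 as a mean of each cell's CPM, 0.43 without Gm26924, 0.41 with thinned cells and 0.76 centred on all genes, and the cause was not tested. The resident count of 2 members past 2-fold was 1 without mitochondrial and ribosomal protein genes, without Gm26924 or without the highest Scrublet scores, and the classical monocyte count of 4 was 2 at 2 times the marker minimum and 3 in cells with Lyz2 at least 20 per 10000 UMIs. At 1.5-fold 14 other lysosome genes were higher and 28 lower. The share of all genes past 1.5-fold was not taken, so these counts are not read as a result about lysosome genes. Doubled marker minimums left under 20 cells in the B, NK, MHC class II-high, cDC1, nonclassical and plasmacytoid gates, as did the upper Lyz2 limit in B, T, NK and cDC1, and these were not run. Subtracting free B cell RNA was not run in B cells. The Lyz2 limits, the myeloid RNA subtraction and the total without Gm26924 were chosen after seeing the data. No paired analysis was possible because each group is 1 library, and no library can be left out. Depth limits Ctse and Ctsk everywhere and Ctsl and Ctsd in dendritic cells, where few UMIs carry the ratio.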

Other observations

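Plasmacytoid and mature dendritic cells had under 20 Control cells and entered no comparison. The 21 plasmacytoid DC of the TTS library, the interferon-making class marked by Siglech, held Ctsl at 1893 CPM, Ctsb at 1791 CPM and Ctsh at 1287 CPM, and the 10 Control cells held 1461, 1813 and 846 CPM. In TTS Ctsb was 5.11-fold and Ctsh 1.82-fold the cDC2 level, while Ctsc, at 140 CPM, was 0.486 of it. Ctse was at 56.0 CPM in the TTS plasmacytoid DC, on 6 UMIs, its highest level in any gate. The 49 mature DC of the TTS library, marked by Fscn1 and Ccl22, held Ctsz at 1267 CPM, Ctss at 906 CPM and Ctsh at 636 CPM, with Ctsd at 394 and Ctsl at 187 CPM. In the 31 of these cells with Lyz2 under 5 per 10000 UMIs Ctsd was at 196 CPM, Ctsl at 35.9 CPM and Ctsz at 1389 CPM. Ctsz thus led the members there, as it did in cDC2 of the same library.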
